A study of Homo sapiens with 6 samples.

Results

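The genes described here are HLA-B, HLA-C, HLA-E and HLA-F, B2M, TAP1, TAP2, TAPBP and NLRC5, which encode HLA class I molecules, the machinery that loads them with peptide and a regulator of their transcription. They were chosen by gene name, and all 9 were found among the 58825 genes of the deposited table. All 9 passed the filter on low counts. Poly(A) RNA was sequenced in 6 libraries from 143B, a human osteosarcoma cell line grown in medium with 10% fetal bovine serum. In 3 libraries the cells had received a negative control siRNA (the control group), and in 3 a siRNA against SIGLEC15, labelled a Siglec-15 knockdown. Both siRNAs were given at 80 nmol/L with a lipid transfection reagent, and RNA was taken after 36 h. No untransfected cells are among the samples, so every level below is that of transfected cells. Nothing in the labels ties the replicates to separate cultures, and the p-values therefore rest on a spread among libraries that may be technical.

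Class I molecules carry peptides from inside the cell to its surface, where CD8 T cells read them. Each consists of a heavy chain, encoded by an HLA gene, and the small invariant chain B2M. TAP1 and TAP2 form the transporter that moves peptides into the endoplasmic reticulum. TAPBP, known as tapasin, holds empty class I molecules at that transporter until a peptide binds. NLRC5 is a coactivator of class I promoters, and interferons raise the transcription of the whole pathway in most cell types. Loss of class I or of TAP is a common way for tumours to escape T cells.

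None of the 9 genes passed the test between the groups (0 higher and 0 lower at an edgeR quasi-likelihood adjusted p under 0.05), where 4.65% of the 18910 tested genes passed, 2.22% higher and 2.43% lower. At an unadjusted p under 0.05 there were 2, B2M and TAPBP, against 19.1% of all tested genes. The DESeq2 Wald test called the same 2 of the 9 as higher, where it called 2916 of the 17043 genes to which it gave an adjusted p (17.1%), against 879 by edgeR. The limma-trend test on log2(FPKM + 1) called 0 of the 7 it tested, beside 7.99% of all genes it tested. The log2 fold changes lay between -0.09 for HLA-E and 0.43 for TAPBP, with a median of 0.26, and 7 of 9 were above 0. Over all tested genes the median was -0.0064, and 49.1% were above 0. The CPM values of the 2 groups did not overlap in 4 of the 9, all of them higher with the SIGLEC15 siRNA (TAPBP, HLA-C, B2M and NLRC5). Over all 18910 tested genes, 2447 (12.9%) were without overlap and higher with this siRNA, and 2589 were without overlap and lower.

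**Figure D1:**
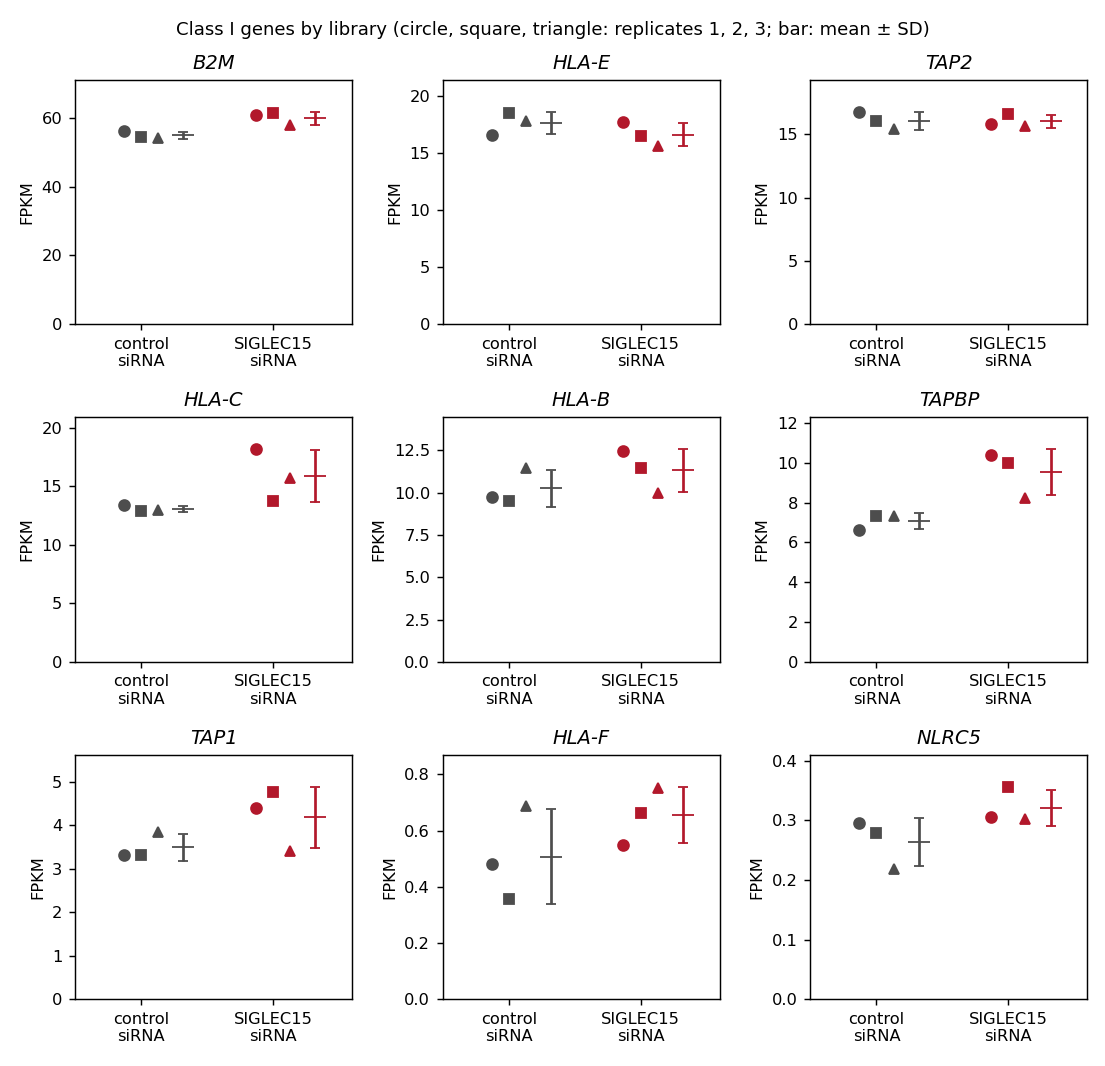
FPKM (y axis, from 0) of each of the 9 genes in every library; circles, squares and triangles are replicates 1, 2 and 3 of the control siRNA (grey) and SIGLEC15 siRNA (red) groups, and the bars beside them give the mean and SD (n = 3). The groups are apart for B2M, HLA-C, TAPBP and NLRC5, and they overlap for the other 5 genes.

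The whole table holds between 57966691 and 67655254 counts per library. The siRNA's target was read near the detection limit: the 3 control libraries held 12, 10 and 22 SIGLEC15 counts, and the 3 SIGLEC15 siRNA libraries held 12, 8 and 6 (log2 fold change -0.82, SE 0.598, edgeR adjusted p = 0.529). A lower target transcript is therefore not shown, and every comparison below is between the 2 transfections as labelled. Of the mesenchymal and osteoblast-lineage markers VIM, SPARC and CD44 were well expressed (482, 62.6 and 15.3 FPKM in the control group), whereas RUNX2 and ALPL stood at 0.327 and 0.0675 FPKM and COL1A2 was not testable. Among the leukocyte markers PTPRC, CD3E and LYZ had 0 counts in all 6 libraries, and the 7 markers summed to between 42.1 and 56.4 CPM in the control group and between 28 and 48 CPM with the SIGLEC15 siRNA, nearly all of it CD68. The epithelial and endothelial markers summed to 221 to 242 and 213 to 231 CPM, most of it KRT8, with CDH1 and CDH5 at 0 counts. Of the 6 testable mesenchymal and osteoblast-lineage markers 2 rose, 0 fell and 4 did not pass, and 3 of the 6 log2 fold changes were above 0. SPARC rose 1.75-fold and COL1A1 rose too (log2 fold changes 0.80 and 0.69, edgeR adjusted p = 0.00137 and 0.0134). VIM, CD44 and ALPL had log2 fold changes of -0.14, -0.10 and -1.09, and the VIM groups did not overlap. RUNX2 read 2.03, 0.373 and 1.53 FPKM in SIGLEC15 siRNA replicates 1, 2 and 3, so that replicate 2 lay next to the controls (log2 fold change 2.00, SE 0.571, edgeR adjusted p = 0.113). The part of these marker changes in the class I values was not tested. In such bulk RNA, fewer cells that express a gene and less of its RNA per cell cannot be told apart.

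Interferon regulatory factors are known to act on class I promoters, which were therefore searched for the letters these factors recognise. RefSeq start sites (GRCh38.p14) were found for 7 of the 9 genes; HLA-E and NLRC5 had no entry. In windows from 250 bases before to 50 bases after the start, the letters AANNGAAA, the core of such a sequence, were searched on both strands. All 7 genes, with 8 windows between them, held at least 1 match. Of 35116 promoter windows of the same length, counted per window and not per gene, 22.8% held one. The letters were chosen with the promoter sequences in view, so this comparison is not a test. TAP1 has a second RefSeq start, whose window held none. The windows of 30 bases around the matches are shown because they are the feature that the 7 promoters have in common; capitals mark the matches, which lie on the reverse strand in HLA-B, HLA-C, HLA-F and TAP1.
HLA-B, chr6:31357316-31357345, minus strand: actcccctgagTTTCACTTcttctcccaac
HLA-C, chr6:31272225-31272254, minus strand: actcccctgagTTTCACTTctcccaacctg
HLA-F, chr6:29723267-29723296, plus strand: tctccccagagTTTCTCTTtctctcccaac
B2M, chr15:44711367-44711396, plus strand: ctctaagaAAAGGAAACTGAAAacgggaaa
TAP1, chr6:32853817-32853846, minus strand: gcggccgcTTTCGATTTCGCTTtcccctaa
TAP2, chr6:32838780-32838809, minus strand: ggctggggAAGCGAAAGCGAAAgctgcccg
TAPBP, chr6:33314075-33314104, minus strand: ttggaggaAAGTGAAAGTGAAAggaggaag

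HLA-B, HLA-C and HLA-F held 1 match each, and B2M, TAP1, TAP2 and TAPBP held 2 overlapping ones. In the 3 heavy chain genes the window began 166, 162 and 167 bases upstream of the start. In TAPBP it reached across the start itself. The counts of 3 further motifs were made in the same way, each on both strands. A kappaB-like sequence (GGGNNTTNC) was found in 4 of 7, namely HLA-B, B2M, TAP1 and TAPBP, against 16.2% of all windows. The CCAAT box was found in 5 of 7 against 34.6%, and the cAMP response core TGACG in 4 of 7 against 24.6%. No match of one motif overlapped a match of another. These counts too are per gene and the shares per window. The motifs were chosen with the promoter sequences in view, and a match is a run of letters, not a shown binding site.

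The levels of the 9 genes spanned a wide range. In FPKM, which corrects for transcript length, the order in the control group was B2M, HLA-E, TAP2, HLA-C, HLA-B, TAPBP, TAP1, HLA-F and NLRC5, and the group means had the same order with the SIGLEC15 siRNA. B2M stood at percentile 96.5 of the tested genes and HLA-E at 88.1. HLA-F and NLRC5 stood at 26.6 and 17.5. In the control group HLA-E and TAP2 overlapped, and every other pair of neighbours in the order was fully apart. With the SIGLEC15 siRNA HLA-E, TAP2 and HLA-C overlapped, and so did HLA-B and TAPBP.

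B2M, the light chain common to all class I molecules, read 56.1, 54.3 and 54.2 FPKM in control replicates 1, 2 and 3 and 60.7, 61.2 and 57.7 FPKM in the SIGLEC15 siRNA replicates. All 3 of the latter lay above all 3 controls. The log2 fold change was 0.13 (SE 0.0523), a fold of 1.09 with a 95% interval of 1.00 to 1.19, and it did not pass (edgeR adjusted p = 0.258; DESeq2 adjusted p = 0.0345). B2M lies on chromosome 15, 44711487 to 44718877, plus strand (ENSG00000166710). It was read deepest of the 9, with 23156 to 29430 counts, and it had the smallest standard error of log2 fold change. Neither it nor TAPBP nor NLRC5 shared any stretch of 50 bases with transcripts of other genes in GENCODE 29.

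Of the heavy chain genes, HLA-B and HLA-C encode classical molecules that present peptides to T cells, and both also serve as ligands of killer cell receptors. HLA-C (ENSG00000204525, chromosome 6, 31268749 to 31272105, minus strand) read 13.4, 12.9 and 12.9 FPKM in the controls and 18.2, 13.7 and 15.7 FPKM with the SIGLEC15 siRNA. The controls were close together, and the SIGLEC15 siRNA libraries were spread, with replicate 1 high and replicate 2 near the controls. The log2 fold change was 0.28 (SE 0.12, edgeR adjusted p = 0.274), and the 95% interval of the fold ran from 0.995 to 1.48. HLA-B (ENSG00000234745, chromosome 6, 31269491 to 31357179, minus strand) read 9.75, 9.52 and 11.5 FPKM in the controls and 12.5, 11.5 and 9.99 FPKM with the SIGLEC15 siRNA. The groups overlapped, with control replicate 3 as high as the middle SIGLEC15 siRNA library. Its log2 fold change was 0.14 (SE 0.124, edgeR adjusted p = 0.612), with a fold between 0.898 and 1.35 in the 95% interval.

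HLA-E and HLA-F encode non-classical heavy chains of little variation; HLA-E presents leader peptides of other class I chains to the receptor NKG2A of killer cells. HLA-E (ENSG00000204592, chromosome 6, 30489509 to 30494194, plus strand) read 16.6, 18.5 and 17.8 FPKM in the controls and 17.7, 16.5 and 15.6 FPKM with the SIGLEC15 siRNA. It was the heavy chain gene with a log2 fold change below 0, at -0.09 (SE 0.0848, edgeR adjusted p = 0.653), and its groups overlapped. HLA-F (ENSG00000204642, chromosome 6, 29722775 to 29729351, plus strand) was weakly expressed, with 0.48, 0.355 and 0.688 FPKM in the controls and 0.55, 0.664 and 0.751 FPKM with the SIGLEC15 siRNA. It had the widest spread of the 9, and its log2 fold change was 0.36 (SE 0.271, edgeR adjusted p = 0.548). A fold anywhere from 0.819 to 2.00 lay within its 95% interval.

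How far reads could be shared between these genes was taken from the reference transcripts of GENCODE 29, because class I genes resemble each other. Of the windows of 50 bases in the transcript with the longest coding part, 2.54% in HLA-B, 6.71% in HLA-C, 5.13% in HLA-E and 1.70% in HLA-F also occur in a transcript of another gene. HLA-B and HLA-C share 30 such windows. The longest run common to their coding parts is 66 bases, at positions 420 to 485 of both coding sequences counted from the first base of the start codon. It is shown because reads within it fit both genes alike.
HLA-B and HLA-C: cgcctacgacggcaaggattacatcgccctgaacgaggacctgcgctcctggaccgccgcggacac

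In the coordinates of the deposited table the HLA-B and HLA-C genes also overlap on the same strand over 2615 bases. The values of the class I heavy chain genes are therefore uncertain. The effect of the shared stretches and of the overlap on these counts was not tested. The sources used here do not name the line's own HLA alleles, and the effect of their differences from the reference on these counts was not tested. RPL3P2, a ribosomal protein pseudogene inside the HLA-B interval on the other strand, did not pass (log2 fold change -0.13, SE 0.0737, edgeR adjusted p = 0.396). It held 2572 to 2867 counts per library, beside 2041 to 3042 for HLA-B. Its CPM values were lower with the SIGLEC15 siRNA, without overlap of the groups. Whether strand was used in counting is not stated. HLA-F overlaps HLA-F-AS1 and RPL23AP1, also on the other strand (log2 fold changes -0.20 and 0.69, edgeR adjusted p = 0.763 and 0.726).

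The heavy chains of a cell need B2M, so the sum of the FPKM of the 4 heavy chain genes was set against B2M within each library. The ratio was 0.716, 0.761 and 0.792 in the controls and 0.806, 0.691 and 0.729 with the SIGLEC15 siRNA, or 0.756 ± 0.0384 against 0.742 ± 0.0584 (SD, n = 3 each). The groups overlapped (exact two-sided permutation test, p = 0.8, with 0.1 as the lowest p this design allows).

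TAPBP (ENSG00000231925, chromosome 6, 33299694 to 33314387, minus strand) had the largest difference and the smallest p of the 9. It read 6.60, 7.34 and 7.31 FPKM in the controls and 10.4, 9.99 and 8.25 FPKM with the SIGLEC15 siRNA, so the groups did not overlap. The log2 fold change was 0.43 (SE 0.109), a fold of 1.35 with a 95% interval of 1.12 to 1.61. The unadjusted p was 0.00614, at rank 1389 of 18910, and the edgeR adjusted p of 0.0834 did not pass. The call depends on the tool, since the DESeq2 adjusted p was 0.000974 at a log2 fold change of 0.43. The other 13 alternatives did not call it. Their edgeR or limma adjusted p lay between 0.0588 (without SIGLEC15 siRNA replicate 3) and 0.252 (with the replicate block).

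The transporter subunits differed from each other in level. TAP2 (ENSG00000204267, chromosome 6, 32821833 to 32838739, minus strand) read 16.8, 16.0 and 15.4 FPKM in the controls and 15.8, 16.6 and 15.6 FPKM with the SIGLEC15 siRNA. Its log2 fold change was -0.0047 (SE 0.0576, edgeR adjusted p = 0.979), its sign changed between alternatives, and the 95% interval of the fold ran from 0.906 to 1.10. TAP1 (ENSG00000168394, chromosome 6, 32845209 to 32853978, minus strand) was lower, with 3.31, 3.31 and 3.85 FPKM in the controls and 4.38, 4.76 and 3.41 FPKM with the SIGLEC15 siRNA. SIGLEC15 siRNA replicate 3 lay among the controls, and the log2 fold change of 0.26 (SE 0.146) did not pass (edgeR adjusted p = 0.41). The ratio of TAP1 to TAP2 FPKM was 0.197, 0.207 and 0.25 in the controls and 0.277, 0.287 and 0.218 with the SIGLEC15 siRNA (exact two-sided permutation test, p = 0.2). In the reference 35.6% of the TAP2 windows of 50 bases are shared with other transcripts, all of them with the overlapping gene AL669918, which had 130 counts over the 6 libraries against 7170 to 8058 per library for TAP2 (log2 fold change 1.64, SE 1.05, edgeR adjusted p = 0.468). The TAP2 level is therefore uncertain, and the effect of this sharing on its counts was not tested.

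NLRC5 (ENSG00000140853, chromosome 16, 56989485 to 57083524, plus strand) was the least expressed of the 9, with 0.295, 0.279 and 0.219 FPKM in the controls and 0.306, 0.356 and 0.302 FPKM with the SIGLEC15 siRNA. The groups did not overlap, though control replicate 1 and SIGLEC15 siRNA replicate 3 nearly met. The log2 fold change was 0.29 (SE 0.16, edgeR adjusted p = 0.396), and the 95% interval of the fold ran from 0.939 to 1.59.

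**Figure D2:**
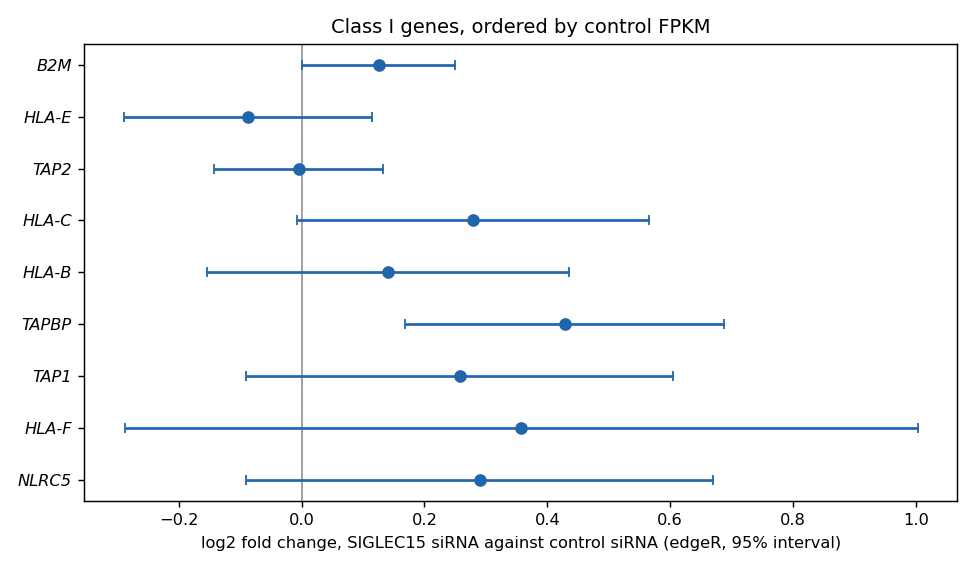
edgeR log2 fold change of SIGLEC15 siRNA against control siRNA (x axis) for each of the 9 genes, ordered by control FPKM, with unadjusted 95% intervals. TAPBP lies farthest from 0, at 0.43, and TAP2 and HLA-E are the 2 genes below 0, TAP2 with a sign that changes under other scalings.

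The SIGLEC15 siRNA libraries did not move alike. In CPM, replicate 1 was the highest of the 6 libraries for 4 of the 9 genes (B2M, HLA-B, HLA-C and TAPBP), replicate 2 for TAP1 and NLRC5 and replicate 3 for HLA-F. A control library was the highest for HLA-E and TAP2. Against the mean of the controls, replicate 1 differed by 0.57 in log2 CPM for TAPBP and by 0.49 for HLA-C, whereas replicate 3 differed by -0.02 for TAP1, -0.03 for HLA-B and -0.16 for HLA-E. Control replicate 3 stood above the other controls for HLA-B (0.19) and TAP1 (0.16).

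**Figure D3:**
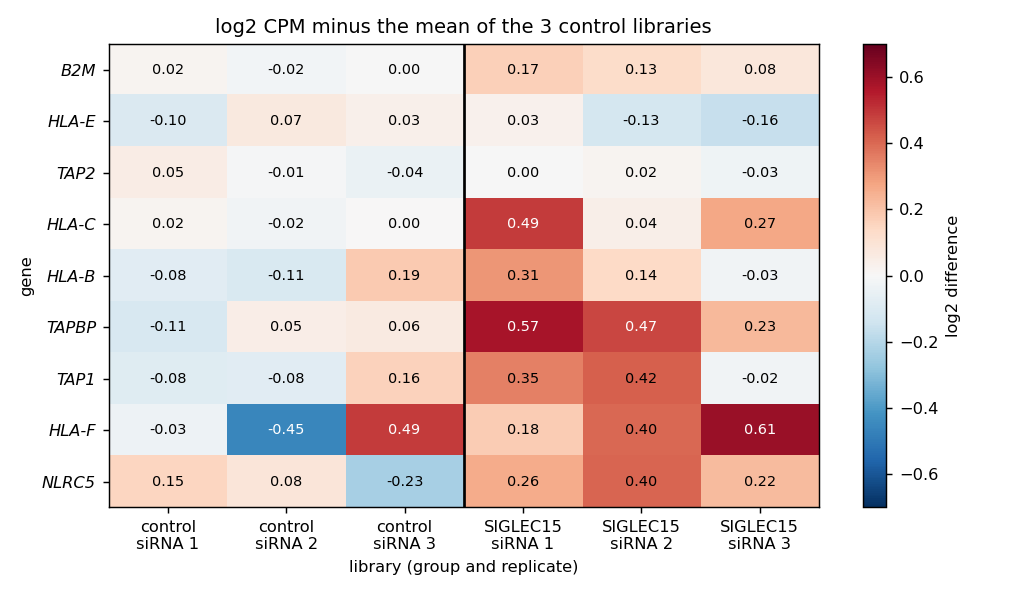
Log2 CPM of each gene (rows) in each library (columns) minus the mean of the 3 control libraries; red is higher and blue is lower. TAPBP is between 0.23 and 0.57 in the 3 SIGLEC15 siRNA libraries, and HLA-F varies from -0.45 to 0.49 within the controls.

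The genes whose log2 CPM ran most like that of HLA-B over the 6 libraries, among 9888 with at least 10 CPM, were TRMT112, TIMM50 and RPS19BP1 (Pearson r = 0.997, 0.992 and 0.988). For TAP1 they were SLC26A6, IFI27L2 and GALK2 (r = 0.987, 0.986 and 0.985). These are the top values of a search over all those genes with 6 points each, which share libraries and depth, and none of the 6 genes passed between the groups (edgeR adjusted p between 0.273 and 0.676).

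The rest of the pathway was taken from 9 gene lists with 108 distinct tested genes, of which 5 rose and 2 fell. That is 6.48%, beside 4.65% of all tested genes.

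Among 14 tested chaperones and trimming peptidases of peptide loading 2 rose, 1 fell and 11 did not pass; the median of the 14 log2 fold changes was 0.22. CALR, calreticulin, the chaperone that holds the glycan of the heavy chain in the loading complex, read 279, 256 and 267 FPKM in the controls and 176, 175 and 167 FPKM with the SIGLEC15 siRNA. It fell 1.55-fold (log2 fold change -0.63, SE 0.0573, edgeR adjusted p = 0.00402). TAPBP, in the same complex, had a log2 fold change of the opposite sign but did not pass. A log2 fold change above 0 was also found for 12 of the 14 genes of this list. BLMH, bleomycin hydrolase, a cytosolic peptidase that trims class I peptides, rose 1.45-fold from 7.22 FPKM ± 0.436 to 10.5 FPKM ± 0.396 (SD, n = 3 each; edgeR adjusted p = 0.0161). NPEPPS, the puromycin-sensitive aminopeptidase of the cytosol, rose 1.23-fold (edgeR adjusted p = 0.045). CALR kept its call in 13 of 14 alternatives and lost it with the replicate block (adjusted p = 0.0667); BLMH was called in 9 of 14 and NPEPPS in 3 of 14.

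Of 13 tested other class I and class I-like heavy chain genes 1 rose, 0 fell and 12 did not pass, and the median log2 fold change was -0.06. The gene that rose was MICB, a stress-induced ligand of the receptor NKG2D that binds neither B2M nor peptide. It read 13.6 FPKM ± 0.957 in the controls and 19.2 FPKM ± 0.589 with the SIGLEC15 siRNA (SD, n = 3 each), a 1.41-fold rise (log2 fold change 0.50, SE 0.0761, edgeR adjusted p = 0.0182). It was called in 7 of 14 alternatives, and in none of the 6 that left out 1 library, where the edgeR adjusted p lay between 0.0546 and 0.0706. The class I pseudogenes were weakly expressed: 3 of 12 in the table were testable, 0 passed, and the highest, HLA-H and HLA-L, had 2.36 and 0.142 FPKM in the control group.

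No immunoproteasome or proteasome activator gene passed (0 of 7 tested by edgeR, 0 at an unadjusted p under 0.05 and 0 by DESeq2), although all 7 log2 fold changes were above 0, with a median of 0.22. POMP, the assembly factor, read 85.6 FPKM ± 6.49 in the controls and 93.8 FPKM ± 9.11 with the SIGLEC15 siRNA (SD, n = 3 each). PSME1, a subunit of the activator PA28, read 29.4 ± 2.92 and 34.3 ± 3.13. PSMB9, an immunoproteasome subunit that spans TAP1 on the other strand and shares its promoter region, read 1.53, 1.52 and 2.21 FPKM in the controls and 2.14, 2.17 and 2.23 FPKM with the SIGLEC15 siRNA (log2 fold change 0.31, SE 0.18, edgeR adjusted p = 0.418). PSMB8-AS1, which also overlaps TAP1 on the other strand, did not pass either (log2 fold change 0.37, SE 0.318, edgeR adjusted p = 0.596).

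Of 15 tested transcription factors of class I promoters 1 rose, 0 fell and 14 did not pass (median log2 fold change 0.05). The one that rose was IRF1, an interferon regulatory factor. It read 1.46, 1.32 and 1.40 FPKM in the controls and 2.62, 2.68 and 2.27 FPKM with the SIGLEC15 siRNA. The rise was 1.81-fold (log2 fold change 0.85, SE 0.105, edgeR adjusted p = 0.00941), and it was called in 12 of 14 alternatives. The exceptions were the replicate block (adjusted p = 0.0952) and the fit without control replicate 2 (0.0525). None of the 9 class I presentation genes passed. Among them, the 7 whose promoter windows hold the letters AANNGAAA had log2 fold changes from -0.0047 for TAP2 to 0.43 for TAPBP. An effect of IRF1 on these genes was not tested.

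Interferon receptors and JAK-STAT signalling genes did not pass either (0 of 12 tested by edgeR, median log2 fold change 0.09). At an unadjusted p under 0.05 there were 3, and DESeq2 called 3, each time 1 higher and 2 lower. Over all genes 19.1% had an unadjusted p under 0.05 and DESeq2 called 17.1%, which also stands beside the counts of the next list. The most abundant, JAK1 and IFNGR2, read 20.3 and 18.3 FPKM in the controls and 25.3 and 18.5 FPKM with the SIGLEC15 siRNA. Of 22 tested interferon-induced genes 0 passed by edgeR, 6 had an unadjusted p under 0.05 and 6 were called by DESeq2, and 19 log2 fold changes were above 0, with a median of 0.21. The most abundant of them were IFITM3 (135 FPKM ± 39.9 against 158 FPKM ± 42.9) and WARS (44.5 FPKM ± 6.34 against 36.3 FPKM ± 2.01; SD, n = 3 each).

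Of 15 tested genes of class I traffic and turnover 0 rose, 1 fell and 14 did not pass (median log2 fold change -0.03). MARCH4, a membrane-bound ubiquitin ligase that can take class I molecules off the cell surface, fell 1.39-fold from 13.5 FPKM ± 0.764 to 9.70 FPKM ± 0.417 (SD, n = 3 each; edgeR adjusted p = 0.0157). It was called in 8 of 14 alternatives, and among the fits without 1 library it was called in 1, without control replicate 3.

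Of the 15 genes of class II presentation, a pathway of professional antigen-presenting cells, 7 were testable, and HLA-DQA1 and HLA-DQB1 had 0 counts in all libraries. The most abundant was IFI30, a lysosomal thiol reductase, with 783 to 1282 counts per library (log2 fold change 0.37, edgeR adjusted p = 0.134). Of the 7, 1 rose and 0 fell. The gene that rose was CTSS, the protease cathepsin S, which went up 2.03-fold from 0.614 FPKM ± 0.0928 to 1.25 FPKM ± 0.159 (SD, n = 3 each; log2 fold change 1.02, edgeR adjusted p = 0.0284). It was called in 5 of 11 alternatives.

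**Figure D4:**
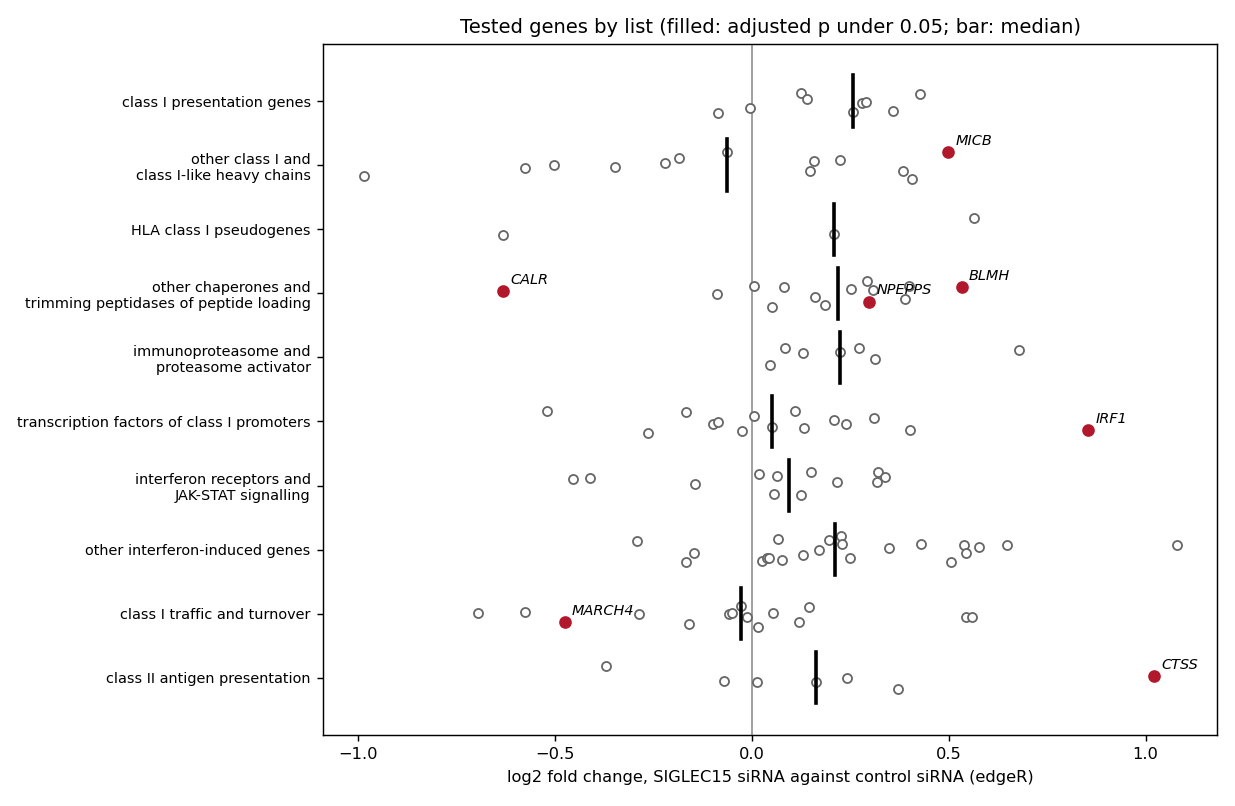
edgeR log2 fold change (x axis) of each tested gene, in rows for the 9 class I presentation genes and each of the other 9 lists; filled red points passed at an adjusted p under 0.05 and are named, and black bars are medians. No point of the top row is filled, and CALR lies at -0.63 while IRF1 lies at 0.85.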

How the data were processed

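The authors deposited whole-number counts per gene and library, and FPKM beside them, per the file headers; genes with 0 counts carry an FPKM of 0.0001. HISAT, StringTie and edgeR are listed, without versions, per the submitters' processing notes. The sources used here do not give the genome build, strand setting or counting step. No value column was left unmatched (0).

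The test of the counts used edgeR 4.0.16 under R 4.3.3 (filterByExpr with a minimum count of 10 and total of 15, TMM scaling, quasi-likelihood F test over all 6 libraries, no covariate), with Benjamini-Hochberg adjustment over all 18910 tested genes and a threshold of 0.05. Each standard error was taken as the log2 fold change over the root of its F statistic. CPM use TMM-scaled totals. Promoters come from RefSeq (GRCh38.p14) and transcripts from GENCODE 29. The edgeR and limma fits were tested on simulated data. Libraries were not copies of each other (chi-square per degree of freedom at least 51.3).

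The genes and lists were chosen with earlier results of these data known. All 9 genes were named. Each list names up to 4 called genes by smallest p, otherwise its 2 most abundant; tested genes that overlap one of the 9 are named too, and so are the 3 most like HLA-B and TAP1. Marker genes, IFI30, other zero-count genes and motifs were named after their values were seen. Alternatives used limma 3.58.1 on log2(FPKM + 1) and log2(FPKM + 0.1), DESeq2 1.42.0, other scalings and filters, the replicate block and each library left out.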

Additional observations from a re-analysis of the deposited data

How the results depend on the processing

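Of 120 values of the 9 genes under alternatives, 114 kept their direction and their side of the threshold. DESeq2 called TAPBP (log2 fold change 0.433) and B2M (0.131), so that 2 genes changed, both higher. TAP2 turned to 0.00015 under median-of-ratios scaling and to 9.1e-05 under DESeq2, and lay between -0.0297 and 0.0209 when 1 library was left out. The count of genes changed was 2916 under DESeq2 (1469 higher, 1447 lower), which shared 874 of the 879 edgeR calls. It was 50 with the replicate block (15 higher, 35 lower), and 260 to 431 without 1 library (108 to 189 higher, 151 to 242 lower). Over the 9 pathway lists edgeR called 7 of 108 tested genes, beside 4.65% of all genes. DESeq2 called 26 of the 106 to which it gave an adjusted p (all 7 among them), beside 17.1% of all genes. The replicate block called 0 of the list genes and the fits without 1 library 1 to 6, where both also called fewer genes in all. The block leaves fewer residual degrees of freedom and the fits without 1 library hold fewer libraries. The causes of the differences in called genes between these fits, DESeq2 and the main test were not tested. The deviations of libraries with the same replicate number correlated at r = -0.0489, 0.0111 and -0.0626, so the number is not taken as a pairing. Paired by number, the ratios gave exact sign-flip p = 1 for heavy chains to B2M (log2 difference -0.0293) and 0.5 for TAP1 to TAP2 (0.254), where 0.25 is the smallest possible. Without 1 library these differences lay between -0.0904 and 0.0202 and between 0.18 and 0.378. HLA-F and NLRC5 were not testable at a mean FPKM of at least 1. HLA-F had 110 to 263 counts per library and the widest spread between libraries of the 9 genes; the share of depth in that spread was not tested.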
